A study of Mus musculus with 24 samples.

Results

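Maternal vitamin D deficiency was examined in the retroperitoneal adipose tissue of low-fat fed daughters, that is in 6 of the 24 mice of the study, of which 3 were born to control mothers (CTRL LF females) and 3 to deficient mothers (VDD LF females). They were taken by the sex and the diets of mother and offspring on their labels, and all genes of the table that holds these 6 libraries were used. All mice were C57BL/6J by their labels (C57BL/6JRJ in the methods), and no engineered allele was given. The mothers ate 1.0 or 0.0 IU of vitamin D3 per gram of diet for 8 weeks before mating and during gestation, and all animals ate the control diet after birth. From 6 weeks of age the offspring ate a low-fat (LF) diet, or a high-fat (HF) diet with 45% of energy from fat, for 8 weeks. Mice were fasted overnight before they were killed, and the time of day was not given. The comparison asked what deficiency of the mother alone left in the fat of an adult daughter that was never challenged with HF diet. Litters were not given in the sources used here, so that sisters may be among them and p-values measure the spread between these mice only.

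White adipose tissue is built of large lipid-filled adipocytes held in a net of collagen and basement membrane, together with vessels, macrophages and the dividing progenitors from which new adipocytes arise. Vitamin D acts through its nuclear receptor, Vdr, which pairs with retinoid X receptors on DNA, and in fat it is best known for effects on adipocyte formation and inflammatory signalling. Bulk RNA of such tissue sums over all these cells, and fewer cells of a type cannot be told apart from less RNA per cell.

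Each library held between 14095335 and 18428568 reads on genes. Values are given as normalised reads, in the order of CTRL mice A, B and C and of VDD mice D, E and F, where the letters only follow column order, and C and F carried the word renal in their column names, whose meaning was not given. The libraries did not hold fat alone. In VDD mouse D, 37 kidney genes summed to 29342 normalised reads against 414 to 1056 in the other 5 libraries, and Umod, the urinary protein of the thick ascending limb, stood at 1906 there and between 0 and 2.33 elsewhere. Genes of contractile muscle summed to 215737 in VDD mouse D, to 76580 in CTRL mouse B and to 639 to 763 in the others. The epithelial keratins Krt5, Krt8, Krt18 and Krt19 summed to 7787 and 4377 in VDD mice E and F, to 2501.8 in CTRL mouse A and to 553 to 1037 in the rest. The part of these other tissues in each result was not tested. Counts of many lists are also given with a library left out. For most single genes no such value is given, and their levels in each mouse are to be read against these sums. The adipocyte hormone Adiponectin (Adipoq) was high in all 6 mice, at 61311, 70058 and 59768 in CTRL and 87141, 61874 and 45663 in VDD, so the labelled tissue was present throughout.

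**Figure D1:**
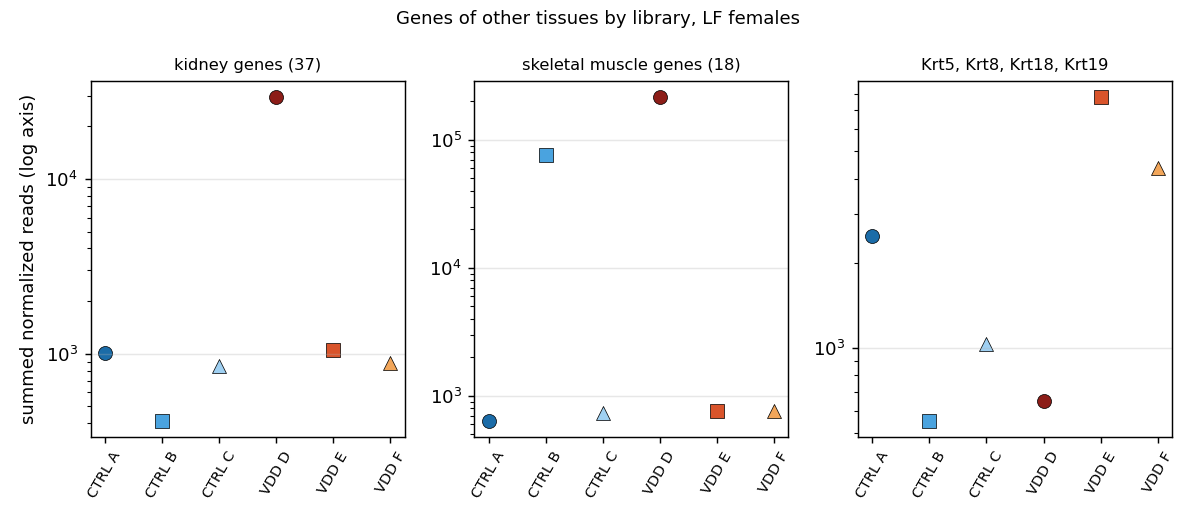
Summed normalised reads (log axis) of 37 kidney genes, 18 skeletal muscle genes and 4 keratins in each of the 6 LF female libraries, 1 point per mouse. Kidney genes reached 29342 in VDD mouse D only, muscle genes were high in VDD mouse D and CTRL mouse B, and keratins were highest in VDD mouse E.

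Of 16046 genes with at least 10 normalised reads in at least 3 libraries, 0 were called by limma (percent called 0), for which both an adjusted p below 0.01 and a change of over 1.5-fold, or to under 0.66 of the CTRL level, were required, and the smallest adjusted p was 0.391. Without adjustment 1933 genes (12%) had a limma p under 0.05, of which 885 (5.52%) were higher and 1048 (6.53%) lower in VDD. limma-voom on the recovered reads also called 0 genes, with 1867 at an unadjusted p under 0.05. The study did report differentially expressed genes for this comparison with DESeq2 at the same limit of adjusted p. That test was not run here. As a description without a test, genes were counted as apart when all 3 VDD mice lay above or below all 3 CTRL mice with the same fold limits. This held for 1000 genes (6.23%), with 446 higher (2.78%) and 554 lower (3.45%) in VDD, and for 273 and 584 when reads were scaled to each library's total, which moved the median log2 fold change of all genes from 0.01 to -0.13. Leaving out VDD mouse F gave 2858 genes apart (8.44% of genes higher and 9.81% lower), and leaving out CTRL mouse B gave 1650 (5.44% and 5.02%). The shares were 3.93% and 4.88% without CTRL mouse A and 3.34% and 3.81% without CTRL mouse C. They were 4.94% and 4.1% without VDD mouse D and 2.65% and 3.49% without VDD mouse E. Counts of members below are to be read against these shares.

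The genes of connective tissue were lower in daughters of VDD mothers. The list of collagens and matrix proteins held 31 tested members, and 19 of them were apart and lower in VDD while 0 were apart and higher, against 3.45% and 2.78% of all genes tested. Its median log2 fold change was -0.99 (all genes, 0.01), and 22 members had an unadjusted limma p under 0.05 in the lower direction, although 0 passed the adjusted test. Col1a1, the main chain of fibrillar type I collagen, had 2404, 2277 and 5047 normalised reads in CTRL and 662, 850 and 988 in VDD. The highest VDD mouse was thus below the lowest CTRL mouse, and CTRL mouse C stood well above its group. The log2 fold change was -1.88 ± 0.32 (SE, limma, adjusted p = 0.391, 3 mice per group). Its partner chain Col1a2 had 4103, 4329 and 7893 in CTRL against 1678, 2019 and 2278 in VDD, a log2 fold change of -1.39 ± 0.27 (SE). Col14a1, a collagen that decorates fibrils, had 792, 685 and 1002 against 364, 322 and 471 (-1.10 ± 0.20, SE). For both chains the groups did not overlap.

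Lama2, the laminin chain of the membrane that surrounds adipocytes and muscle fibres, is not in that list and was named because it had the smallest p of all genes. Its levels were 624, 615 and 624 normalised reads in CTRL and 306, 328 and 363 in VDD, and the spread within each group was small beside the gap. The log2 fold change was -0.90 ± 0.12 (SE, limma, adjusted p = 0.391). Perlecan (Hspg2), also outside the list, a heparan sulfate proteoglycan of basement membranes, had 6738, 6608 and 7430 against 3294, 3201 and 4563 (-0.93 ± 0.18, SE). Mmp14, a list member and membrane-bound protease that cleaves collagen, had 1057, 1110 and 1019 against 594, 601 and 732 (-0.73 ± 0.13, SE). Fibronectin (Fn1), fibrillin (Fbn1) and the type IV chains Col4a1 and Col4a2, which were chosen for mention after their values were seen, were also apart and lower, with log2 fold changes of -1.25, -1.40, -0.91 and -0.86. Not every member went this way. The matricellular gene Ctgf (0.45), the inhibitor Timp3 (0.21) and Thbs2 (0.17) had positive values without groups apart.

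Groups that are apart cannot come to overlap when a library is left out. A gene then leaves the count only through the fold limit or the read filter. Such counts therefore cannot show that a result is independent of that library. The count of matrix genes apart was 21 of 31 without VDD mouse D (4.1% of all genes lower). It was 19 without CTRL mouse B (5.02%), 19 without CTRL mouse C (3.81%) and 18 to 22 in the settings tried. The median stayed between -1.15 and -0.79. The median of members, as log2 deviation from the mean of the 6 libraries, was 0.18, 0.43 and 0.90 in the CTRL mice and -0.65, -0.63 and -0.23 in the VDD mice. Members of this list were long, with a median exonic length of 7008 bases against 4223 for all genes. Under the same contrast LF sons had a median of -0.42 with 30 of 31 members lower, and HF daughters, whose controls were other mice, -1.27 with 30 of 31 lower. The interaction of sex and maternal diet had a median of -0.33 over the list, with 3 of 31 members at an unadjusted limma p under 0.05 and a smallest adjusted p of 0.944. The difference between LF and HF daughters was not tested.

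**Figure D2:**
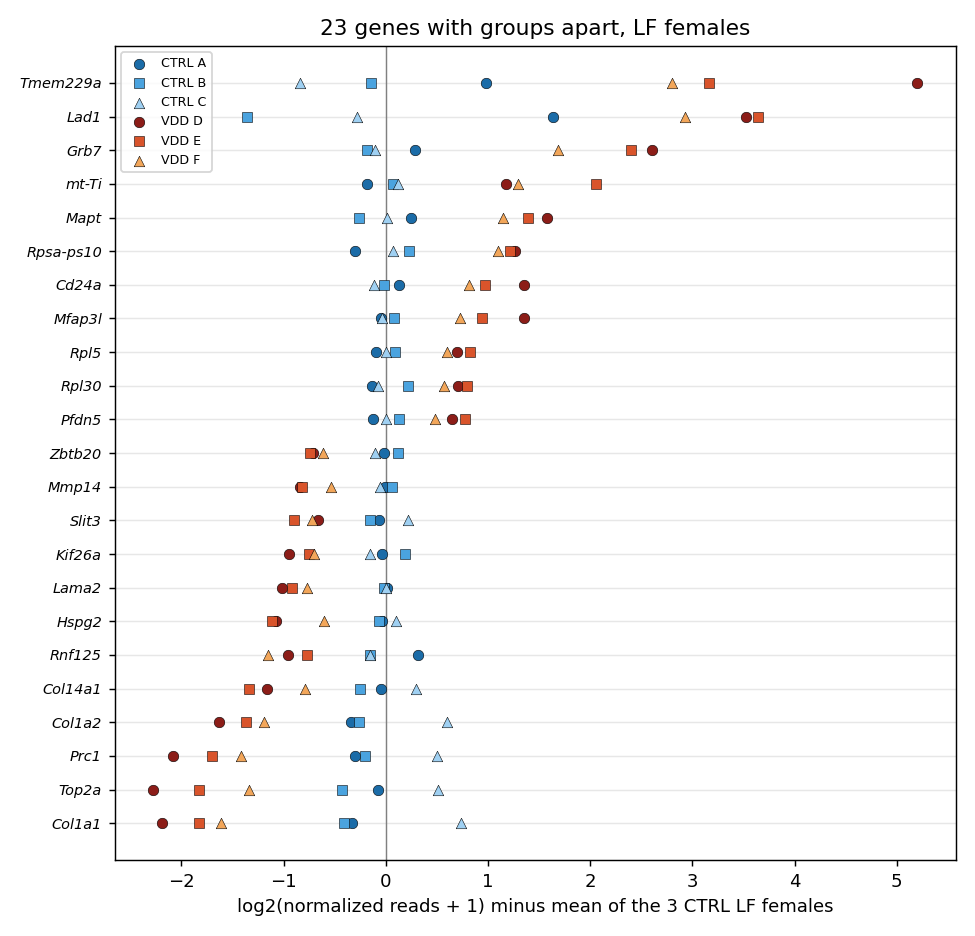
Each mouse's log2(normalised reads + 1) minus the CTRL mean for 11 higher and 12 lower genes with groups apart, taken by smallest p (blue, CTRL; red and orange, VDD; triangles, the libraries with renal in the name). Col1a1 has the lowest mean of the VDD mice, and for Tmem229a VDD mouse D lies furthest above it.

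Genes of dividing cells were lower in the same mice. Of 24 listed genes of the cell cycle 23 were tested, and 17 were apart and lower in VDD with 0 apart and higher, against 3.45% and 2.78% of all genes. The median log2 fold change was -0.92, and 16 members had an unadjusted p under 0.05. Top2a, the topoisomerase that untangles sister chromosomes, had 122, 95.7 and 185 normalised reads in CTRL and 25.9, 35.8 and 50.5 in VDD. Mki67, the Ki-67 antigen of cycling nuclei, had 195, 110 and 265 against 40.7, 47.3 and 66.0. In both genes every VDD mouse was below every CTRL mouse. The log2 fold changes were -1.82 ± 0.34 (SE, limma, adjusted p = 0.391) for Top2a and -1.81 ± 0.35 (SE, limma, adjusted p = 0.391) for Mki67. Prc1, which bundles microtubules of the late spindle and is not in that list, had 53.4, 57.2 and 93.7 against 14.8, 19.6 and 24.1 (-1.73 ± 0.32, SE). Prc1 had the same adjusted p.

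The fold change varied among the members. Pcna, the sliding clamp of the polymerase, had a log2 fold change of -0.02, Mcm2 of the replicative helicase -0.33, and Tyms, which makes thymidylate, 0.17, all without groups apart and all picked for mention after their values were seen. The mitotic genes Kif11 (-1.88) and Cenpf (-1.78) were at the other end. Levels of most members were low, so that 1 further gene, Bub1, was not tested at 11.7, 7.003 and 23.6 against 7.40, 2.31 and 4.66 normalised reads. The count apart was 17 without VDD mouse D, 17 without CTRL mouse B, 17 with the length trend removed and never under 15 in the settings tried. As for matrix genes, a count with a library left out could fall only through the fold limit or the read filter. In LF sons the median was -0.01, with 12 of 23 members lower, and in HF daughters -0.88, with 23 of 23 lower. The interaction of sex and maternal diet had a median of -1.06 over the list, and 7 of 23 members had an unadjusted limma p under 0.05 (4.6% of all genes), while the smallest adjusted p was 0.944, so a difference between daughters and sons was not established gene by gene.

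The promoters of both genes are shown because genes of this group are known to share the CCAAT box and the cell cycle homology region. The 250 bases before the RefSeq start of each gene (GRCm38.p6, minus strand) are printed 5′ to 3′, and capitals mark CCAAT or TTTGAA on either strand. They lie at chr11:99024190-99024439 for Top2a and chr7:135716380-135716629 for Mki67.
Top2a: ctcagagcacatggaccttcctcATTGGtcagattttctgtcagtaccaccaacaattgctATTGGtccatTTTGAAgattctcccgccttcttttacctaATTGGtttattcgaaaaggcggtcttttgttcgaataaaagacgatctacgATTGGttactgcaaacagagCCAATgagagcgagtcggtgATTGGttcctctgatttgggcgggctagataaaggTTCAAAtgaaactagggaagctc
Mki67: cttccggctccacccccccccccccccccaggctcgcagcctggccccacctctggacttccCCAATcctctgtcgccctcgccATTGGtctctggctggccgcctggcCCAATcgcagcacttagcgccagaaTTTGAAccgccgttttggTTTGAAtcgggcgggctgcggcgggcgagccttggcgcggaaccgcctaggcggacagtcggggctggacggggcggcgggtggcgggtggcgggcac
The Top2a window held 6 matches to CCAAT and 2 to TTTGAA, and the Mki67 window 3 and 2. Of the 24 listed genes 20 had a promoter in the table, of which 18 held CCAAT and 8 held TTTGAA, against 34.5% and 16.3% of all 27025 promoters. A match is a match of letters and shows no bound factor.

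**Figure D3:**
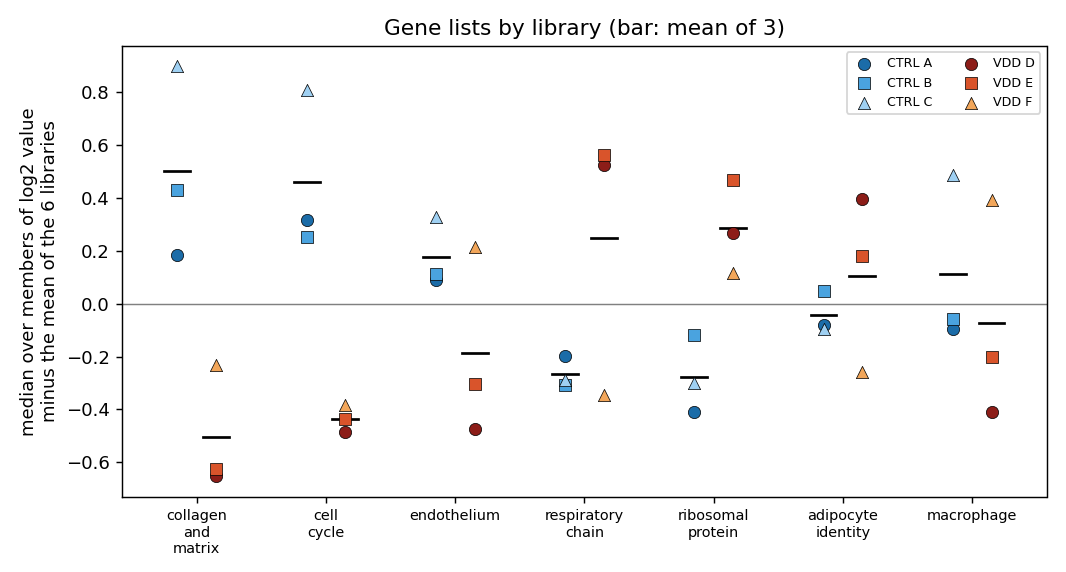
Median over the members of 7 gene lists of the log2 value minus the mean of the 6 libraries, by mouse (bar, mean of 3 mice). Collagen and matrix and cell cycle genes are above 0 in all 3 CTRL mice and below 0 in all 3 VDD mice, whereas for respiratory chain genes VDD mouse F (-0.34) lies with the CTRL mice.

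The respiratory chain went the other way, but not in every mouse. All 44 nuclear-encoded subunits had a log2 fold change above 0 (51.6% of all genes), with a median of 0.52 and a range from 0.20 to 0.88. Only 3 were apart and higher (2.78% of all genes), and 13 had an unadjusted p under 0.05. Cox6c, a subunit of cytochrome c oxidase, had 4993, 5307 and 4577 normalised reads in CTRL and 11826, 10969 and 5772 in VDD. Ndufb5, an accessory subunit of complex I, had 1870, 1841 and 1658 against 3137, 3222 and 1921. In both genes VDD mouse F stood just above the highest CTRL mouse and the other VDD mice far above. The log2 fold changes were 0.88 ± 0.28 (SE, limma, adjusted p = 0.391) and 0.59 ± 0.21 (SE, limma, adjusted p = 0.397).

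Against the CTRL mean, the median of the 44 subunits was 0.78 in VDD mouse D, 0.80 in E and -0.07 in F. Within the pair of libraries with renal in the name the median difference was -0.03, and within the other 4 libraries it was 0.79. Without VDD mouse F, 36 of 44 subunits were apart and higher, without CTRL mouse B it was 8, without CTRL mouse A it was 6, and without VDD mouse D or VDD mouse E it was 1. All 44 were also above 0 in LF sons (median 0.48) and in HF daughters (median 1.13).

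Ribosomal proteins, a list chosen after the values were seen because Rpl5 and Rpl30 were among the 12 higher genes with the smallest p, had a median log2 fold change of 0.55 over 83 tested members. Of these, 33 were apart and higher in VDD and 0 apart and lower (2.78% and 3.45% of all genes). Rpl5 of the large subunit had 2965, 3356 and 3167 normalised reads in CTRL and 5121, 5588 and 4779 in VDD, without overlap (0.71 ± 0.13, SE, limma, adjusted p = 0.391). Rpl30 had 2171, 2772 and 2261 against 3893, 4152 and 3543 (0.69 ± 0.14, SE). The count apart was 10 with reads scaled to library totals (1.7% of all genes higher) and 10 with the length trend removed (1.84%). It was 17 without VDD mouse E, 19 without CTRL mouse A, 51 without CTRL mouse B and 53 without VDD mouse F. LF sons had a median of 0.12 and HF daughters of 0.07. Several of these genes have near-identical processed copies, and reads with more than 1 position were not counted, so their levels are uncertain.

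The exonic length of a gene, taken as the union of all its annotated exons and not as the size of 1 transcript, moved with its fold change. Across the 15092 tested genes with a known exonic length (94.1%), Spearman's rho between length and log2 fold change was -0.355, a value across genes, which are not independent. The shortest decile of genes (median 1038 bases) had a median difference of 0.31 on the log2 scale, and 132 of them were apart and higher and 29 lower. The longest decile (median 12153 bases) had -0.19 with 11 higher and 80 lower. The slope was steepest in CTRL mouse A and VDD mice D and E, and nearly flat in CTRL mouse B and VDD mouse F. The shortest decile stood at 0.09 in LF sons and 0.23 in HF daughters. Respiratory chain and ribosomal protein genes are short (median 1918 and 1770 bases). With the trend over length removed, matrix genes had 18 of 30 members apart and lower and cell cycle genes 17 of 23 (3.17% of all genes). The same removal was made for the other lists. Over all settings tried, this one included, the median of respiratory chain genes ranged from 0.30 to 0.81. The part of length in each result was not tested beyond this removal.

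**Figure D4:**
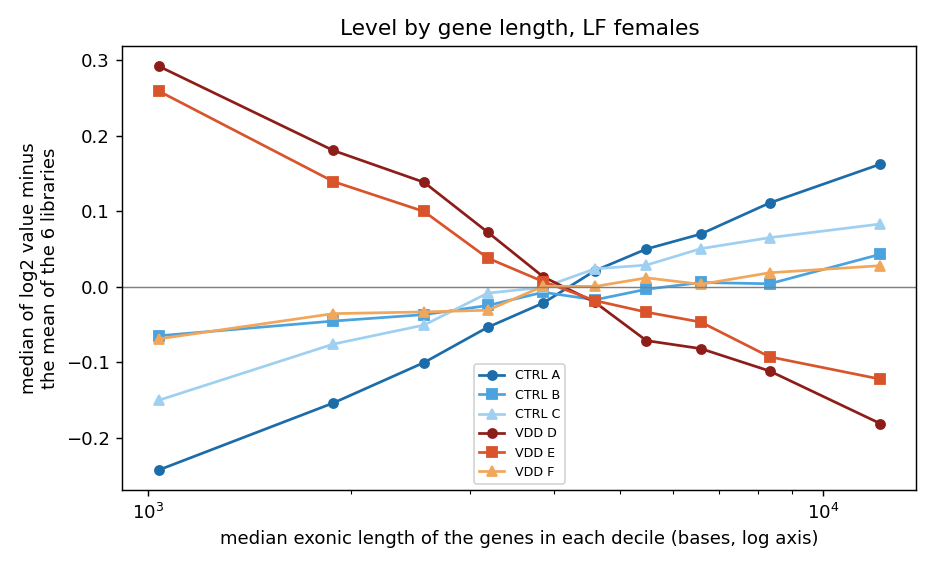
Median log2 value minus the mean of the 6 libraries in deciles of genes by exonic length (log axis), 1 line per mouse. The lines of VDD mice D and E run from 0.29 and 0.26 in the shortest genes to -0.18 and -0.12 in the longest, and that of CTRL mouse A runs from -0.24 to 0.16.

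Outside these groups, Grb7 had the smallest p among the higher genes. Grb7 encodes an adaptor that binds activated receptor tyrosine kinases, and it had 26.2, 18.7 and 19.7 normalised reads in CTRL and 134, 117 and 70.7 in VDD. The lowest VDD mouse was far above the highest CTRL mouse, and the log2 fold change was 2.23 ± 0.31 (SE, limma, adjusted p = 0.391). Mapt, which encodes the microtubule protein tau, had 67.0, 46.7 and 56.7 against 170, 149 and 126 (1.37 ± 0.22, SE). The surface glycoprotein gene Cd24a had 253, 229 and 213 against 592, 455 and 408 (1.05 ± 0.17, SE). Mapt had a log2 fold change of 1.59 in LF sons and 1.66 in HF daughters, and Grb7 of 0.24 and 0.76.

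Among the other higher genes, Tmem229a had 16.5, 7.003 and 3.94 normalised reads in CTRL and 324, 78.5 and 60.6 in VDD. The other VDD mice were also above every CTRL mouse, and VDD mouse D, with its kidney transcripts, was the highest of all. Lad1, a filament protein of epithelial anchoring, had 53.4, 5.84 and 13.4 against 201, 217 and 132 (3.37 ± 0.69, SE), and was highest in VDD mouse E. VDD mouse D was the highest library in 219 of the 446 genes apart and higher, and the lowest in 274 of the 554 apart and lower. Pfdn5, a subunit of the prefoldin chaperone, and Mfap3l had log2 fold changes of 0.64 and 1.01. The mitochondrial tRNA gene mt-Ti (1.51) and the pseudogene Rpsa-ps10 (1.19) are very short or share sequence with other loci, so their values are uncertain.

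Among the lower genes, Zbtb20, a transcriptional repressor, had 2162, 2382 and 2040 normalised reads in CTRL and 1339, 1311 and 1431 in VDD (-0.69 ± 0.12, SE, limma, adjusted p = 0.391). Rnf125, a ubiquitin ligase, had 1071, 773 and 774 against 444, 507 and 387 (-0.96 ± 0.17, SE). Neither gene's groups overlapped. The guidance ligand Slit3 (-0.76 ± 0.14, SE) and the kinesin relative Kif26a (-0.80 ± 0.15, SE) were apart as well, and of the 24 genes taken by smallest p only Slit3 was also apart in LF sons, in the same direction.

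The circadian clock was read in both directions. Of 19 tested genes, 4 were apart and higher and 3 apart and lower in VDD (2.78% and 3.45% of all genes), and 7 and 3 had an unadjusted p under 0.05. Dbp, an output gene of the clock, had 322, 256 and 210 normalised reads in CTRL and 702, 417 and 486 in VDD. Cry1, a repressor of the clock's activators, had 197, 216 and 191 against 136, 134 and 117. Groups did not overlap in either gene, with log2 fold changes of 1.01 ± 0.24 (SE, limma, adjusted p = 0.391) and -0.64 ± 0.15 (SE, limma, adjusted p = 0.391). The other genes apart, named after their values were seen, were Nr1d2 (0.59), Hlf (0.67) and Ciart (0.93), which are output or repressor genes, and Arntl (-0.76) and Npas2 (-1.21), which encode a partner pair of activators. Without VDD mouse D the counts were 3 higher and 2 lower, and without CTRL mouse C they were 2 and 3. In LF sons Arntl and Npas2 had log2 fold changes of 0.30 and 0.76 and Dbp -0.14. The hour at which each mouse was killed was not given, and hour and maternal diet cannot be told apart.

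The promoter of Cry1 is shown because the activators of the clock are known to bind E-boxes. The printed sequence is the 250 bases before its RefSeq start at chr10:85185055-85185304 (GRCm38.p6, minus strand). Capitals mark CACGTG.
Cry1: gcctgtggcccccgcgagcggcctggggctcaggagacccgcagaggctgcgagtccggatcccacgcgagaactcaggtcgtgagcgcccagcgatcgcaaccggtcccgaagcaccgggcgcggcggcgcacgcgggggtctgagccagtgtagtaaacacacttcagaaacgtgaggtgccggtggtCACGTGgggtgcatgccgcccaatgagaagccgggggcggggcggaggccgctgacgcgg
It held 1 CACGTG and 0 matches to the D-box TTATGNAA on either strand. The same window of Dbp held 0 of both, which says only that these letters are not in it. Of 16 listed clock genes found in the table, 5 held CACGTG and 2 held TTATGNAA, against 6.05% and 3.23% of all promoters.

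The study set out to follow inflammatory genes. The 29 tested macrophage markers had a median of -0.11 on the log2 scale, and 0 were apart (6.23% of all genes). Without VDD mouse F 6 were apart and lower, and without CTRL mouse B 5 were. Adgre1, the F4/80 antigen, had 199, 209 and 454 normalised reads in CTRL and 171, 168 and 519 in VDD, so that the high values were those of the libraries with renal in the name, C and F, in each group. The same libraries had the highest macrophage medians, 0.49 and 0.39 above the mean of the 6. Of 21 tested cytokine and chemokine genes, 1 was apart and higher and 3 apart and lower (2.78% and 3.45% of all genes). The lower count was 0 without CTRL mouse C and 5 without CTRL mouse A. Cxcl13, which attracts B cells, had 56.3, 63.0 and 105 against 117, 143 and 183 (1.01 ± 0.29, SE, limma, adjusted p = 0.391). Csf1, the macrophage growth factor, had 354, 532 and 521 against 264, 261 and 345 (-0.68 ± 0.20, SE). Ccl2, the monocyte chemoattractant, had 16.5, 18.7 and 26.8 against 13.6, 6.92 and 15.5 (-0.78 ± 0.41, SE, limma, adjusted p = 0.45), and the stromal chemokine Cxcl12 had a log2 fold change of -0.79. Tnf was at 4.66 normalised reads or less in all 6 mice and was not tested.

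The study measured phosphorylated over total protein for p65 of NF-kB and for p38, and reported no induction of either in VDD females. Transcript levels, given here, are another measure. For this comparison the study also reported miRNA changes and pathways drawn from its own differentially expressed genes, with the oxidative stress response of NRF2 raised. Those analyses were not repeated here. Of 20 tested NF-kB subunits and inhibitors 0 were apart, with a median of -0.11, and at 6.23% of all genes apart a count of 0 or 1 in a list of this size is near the background. Nfkb1 had 815, 756 and 765 normalised reads in CTRL and 480, 585 and 665 in VDD (-0.44 ± 0.14, SE, limma, adjusted p = 0.391), without overlap but short of the fold limit. Rela, which encodes p65, had a log2 fold change of -0.06 ± 0.15 (SE), the inhibitor gene Nfkbia 0.36 ± 0.12 (SE), and the p38 kinase gene Mapk14 -0.07 ± 0.12 (SE). In the list of p38 and MAP kinase phosphatases 1 of 23 members was apart and lower and 0 higher. Interferon-response genes had a median of -0.17 with 25 of 30 lower and 0 apart (7 apart and lower without VDD mouse F), and Tap1, which loads peptides for presentation, had the smallest p (-0.38 ± 0.11, SE). Of 23 acute phase and complement genes 1, the complement gene C4b (-0.78), was apart and lower.

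Of 19 listed genes of the vitamin D system 12 were tested and 0 were apart, which is near the background of 6.23% for so short a list. Without VDD mouse E 3 were apart and higher (2.65% of all genes). Of the 12, 11 had a log2 fold change above 0 (51.6% of all genes), with a median of 0.19. Against the CTRL mean the median was 0.41 in VDD mouse D, 0.20 in E and 0.16 in F. In LF sons 5 of the 12 were above 0, and in HF daughters 6. Vdr had 44.7, 31.5 and 17.3 normalised reads in CTRL and 561, 38.1 and 56.7 in VDD. The value of 561 came from the mouse with kidney transcripts, whereas VDD mouse E lay within the CTRL range and VDD mouse F above it. Cyp24a1, the enzyme that inactivates the hormone and a classical target gene of kidney, had 565 there and at most 0.79 in every other library. The calcium-binding gene S100g had 3146 there and at most 28.0 elsewhere. The retinoid X receptor gene Rxra, the partner of Vdr, had a log2 fold change of 0.11.

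In the list of adipocyte identity 1 of 24 genes was apart and higher, namely Cebpd, a transcription factor of early adipocyte formation, with 346, 657 and 310 normalised reads in CTRL and 779, 887 and 907 in VDD (1.05 ± 0.27, SE, limma, adjusted p = 0.391). The count of 1 is near the share of all genes (2.78%), and without VDD mouse F it was 6 (8.44% of all genes). Leptin (Lep), the satiety hormone, had 572, 2464 and 976 against 1909, 1867 and 2005 (0.79 ± 0.47, SE, limma, adjusted p = 0.483), and the CTRL mice spanned the VDD mice. Ucp1, the uncoupling protein of heat-producing fat, had 5154, 132 and 2859 against 3.70, 1006 and 882 (-2.96 ± 2.24, SE). De novo lipogenesis had 0 of 20 genes apart, and 4 apart and higher without VDD mouse F. Acly, which makes cytosolic acetyl-CoA, had 4617, 2296 and 2904 against 9652, 6661 and 2754, so that VDD mouse F lay within the CTRL range. Gpx3, a secreted glutathione peroxidase that kidney also makes in quantity, had 11708, 21939 and 14719 against 57089, 40553 and 31711 (1.43 ± 0.34, SE), and every VDD mouse was above every CTRL mouse. In that list of antioxidant genes 3 of 29 were apart and higher (2.78% of all genes), 5 without VDD mouse D and 6 without VDD mouse F, and Gsta2, 1 of them, was at 1550 in VDD mouse D and at 40.4 and 18.6 in the other VDD mice.

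Vessel and surface markers were lower in part. Of 16 endothelial genes 2 were apart and lower (3.45% of all genes), and without VDD mouse D it was 0, without CTRL mouse B or VDD mouse E 1, and without VDD mouse F it was 6. Cdh5, the cadherin of endothelial junctions, had 2870, 3370 and 3342 normalised reads in CTRL and 1721, 1844 and 2638 in VDD (-0.65 ± 0.18, SE, limma, adjusted p = 0.391). Msln, the mesothelin of the cavity lining, had 880, 945 and 715 against 529, 535 and 397 (-0.80 ± 0.17, SE, limma, adjusted p = 0.391), and Lrrn4 of the same cells had 440, 348 and 528 against 266, 235 and 237 (-0.81 ± 0.18, SE). Of 10 mesothelial genes 3 were apart and lower and 0 higher (3.45% and 2.78% of all genes), and without VDD mouse D it was 3 higher and 2 lower. By fold change 7 of the 10 were lower and 3 higher, namely Krt8 (1.52), Krt19 (0.93) and Upk1b (0.74). Upk1b had 962, 439 and 503 normalised reads in CTRL and 303, 2229 and 1457 in VDD. Summed over the list, reads were 6895, 5430 and 5356 in CTRL and 3683, 10118 and 6945 in VDD. In the lists not described so far at most 1 member was apart in either direction, kidney genes excepted with 2 of 12 tested. Some of these counts rested on 1 library. Of 8 mammary epithelium genes 1 was apart and higher, and 7 without VDD mouse D. Of 17 brown and beige fat genes 1 was apart and higher, 4 without VDD mouse D and 5 without CTRL mouse A, and 3 were apart and lower without CTRL mouse B. Of 10 skeletal muscle genes 0 were apart, and 4 of 9 higher without CTRL mouse B.

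**Figure D5:**
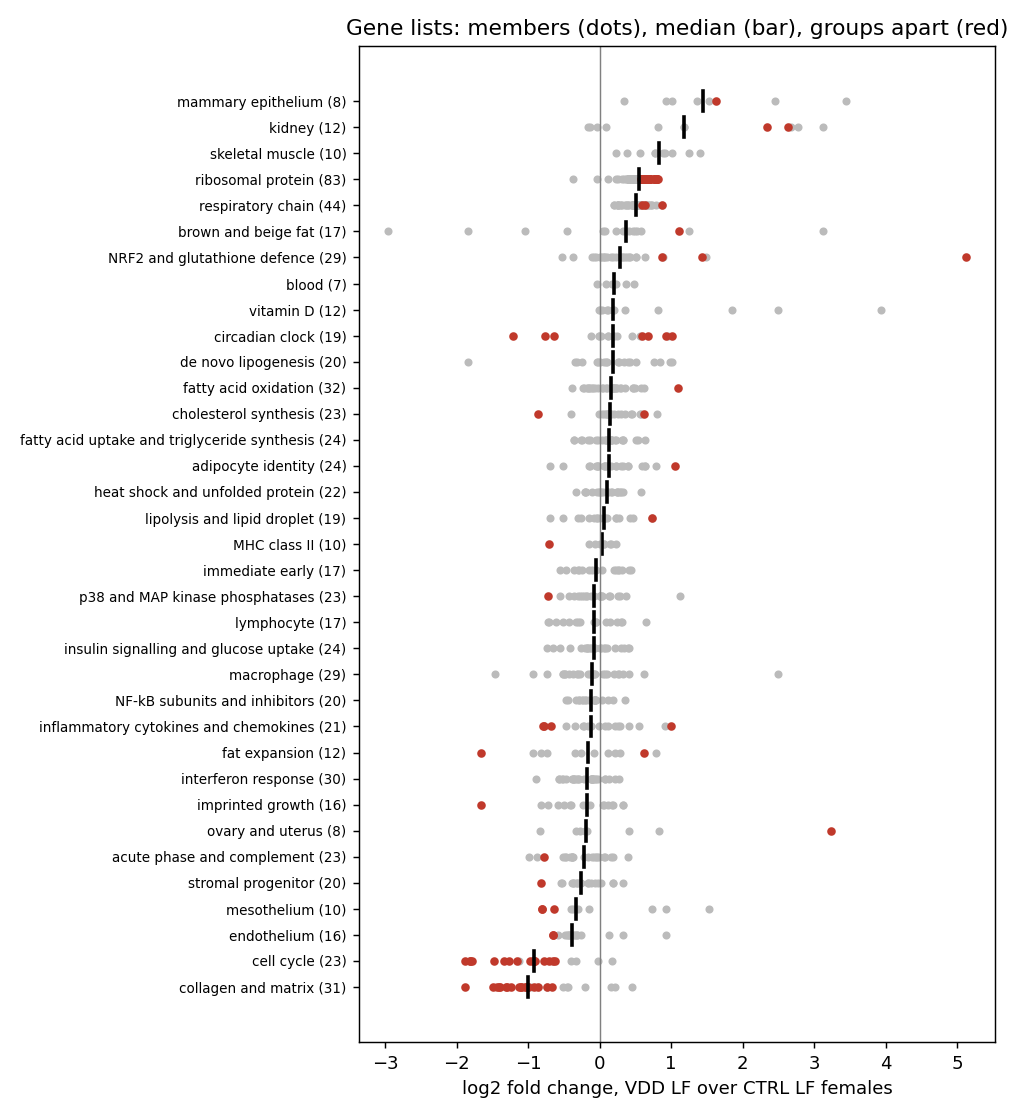
Log2 fold change of VDD over CTRL LF females for the tested members of each gene list with 5 or more such members (dots), with the list's median (bar) and members with groups apart in red. Collagen and matrix (median -0.99) and cell cycle (-0.92) lie lowest, and the mammary epithelium, kidney and skeletal muscle lists, which were high in 1 or 2 libraries, lie highest.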

How the data were processed

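RNA of retroperitoneal fat was sequenced from 3 mice per group with a stranded mRNA kit. Per the methods and the submitters' processing notes, reads were trimmed with Sickle, aligned with STAR 2.7.0d keeping unique positions, extended with transcripts from Cufflinks 2.2.1 and counted with featureCounts 1.6.1, and groups were compared with DESeq2. The build named there is mm10. Each of 8 tables deposited by the authors holds log2(normalised reads + 1) for 6 libraries, which already include the authors' size factors, and also their fold changes and p-values, which were not used. Undoing the log2 and size factor gave whole reads for 100% of values within 0.02. Of the 56899 entries, 4 were dropped because their names, turned into dates, occurred more than once.

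The deposited log2 values were fitted with limma 3.58.1 (lmFit, eBayes with trend) in R 4.3.3, with Benjamini-Hochberg adjustment over all genes tested. Error terms are limma standard errors, and normalised reads are the deposited values without the log2 and the added 1. The interaction of sex and maternal diet was fitted to recovered reads of the 12 LF libraries, scaled together. Alternatives were limma-voom, a pseudocount of 10, no filter, other scalings, all 12 female libraries, a robust prior, other thresholds and leaving out each library, with 3 settings added after the data were seen (without the libraries with renal in the name, that word as a block, and length trend removed). The scripts were tested on simulated data.

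Genes named were the 12 higher and 12 lower genes apart with the smallest p and a mean of at least 50 reads in 1 group, the 2 members of each of 36 lists with the smallest p, the 3 highest members of tissue lists, fixed genes such as Lep and Vdr, and the 3 with the smallest interaction p. Others are named as chosen after their values were seen. Some genes that this rule takes are not reported here. Genes, lists and the comparison itself were chosen with earlier results of these data known. Promoter sequences are RefSeq's, and precision rests on 3 mice per group. Columns of the tables name mice by number, and the mapping to groups, not to replicate numbers, came from those names.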

Additional observations from a re-analysis of the deposited data

Results flagged for a closer look

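Among the genes named by the rule, a set partly taken by their interaction, there were 3 for which the daughters of VDD mothers were apart from CTRL daughters on one side and the sons on the same diet on the other. Cxcl13, the B cell chemoattractant, had a log2 fold change of 1.00 in daughters and -1.46 in sons, and the interaction of sex and maternal diet was 2.47 ± 0.35 (SE, limma, adjusted p = 0.201). On the scale common to the 12 LF libraries Cxcl13 had 724, 883 and 851 normalised reads in CTRL males and 284, 347 and 262 in VDD males, so that both groups of sons were above all daughters. Bmp3, a ligand of the bone morphogenetic protein family, had a log2 fold change of 0.61 in daughters and -1.72 in sons, and the interaction was 2.33 ± 0.34 (SE, limma, adjusted p = 0.201). Bmp3 had 359, 242 and 438 normalised reads in CTRL males and 95.7, 87.7 and 125 in VDD males. Tmem26, a surface marker used for beige fat, had low levels, 11.7, 9.34 and 8.66 in CTRL daughters and 23.4, 24.2 and 19.4 in VDD daughters. Its log2 fold change was 1.11 in daughters and -1.15 in sons, and the interaction was 2.26 ± 0.50 (SE, limma, adjusted p = 0.944). None of the 3 passed the adjusted test, and 0 of 16916 genes did (percent called 0), with 778 (4.6%) at an unadjusted limma p under 0.05 and 702 by limma-voom, which also called 0. Groups of 3 mice are too small for a check of single outlying mice.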

How the results depend on the processing

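No paired analysis was possible because the column names carry mouse numbers, not the replicate numbers of the labels. The count of 0 genes called held in all settings of the main comparison that used an adjusted p, each of them a limma fit. The smallest adjusted p was 0.0518 without VDD mouse F and 0.818 without VDD mouse E. A limit of 0.01 on the limma p before adjustment gave 290 genes (128 higher, 162 lower). The study's own test, DESeq2, was not among the settings. The count of genes apart was 1966 without the filter, 3161 without the libraries with renal in the name, and between 967 and 2858 when 1 mouse was left out, against 1000. Its split of 446 higher and 554 lower was 277 and 479 with the length trend removed. The interaction called 0 genes in every setting tried. Of 1200 values of single genes 1192 kept direction and 8 did not. The side of the threshold could not change, because 0 genes were called in each of these settings. For a gene with groups apart, leaving out a mouse could not change the direction either, so the count says little about stability. The log2 fold change of Adipoq (-0.02) ranged from -0.26 to 0.21 when 1 mouse was left out, being positive without CTRL mouse B (0.05) or VDD mouse F, and was 0.16 without the libraries with renal in the name. That of Adgre1 (-0.11) ranged from -0.65 to 0.27, being positive without CTRL mouse C, VDD mouse D or VDD mouse E, and that of Rela (-0.06) from -0.14 to 0.071, being positive without VDD mouse D. That of Acta1 of muscle (1.40) ranged from -1.10 without VDD mouse D to 3.78 without CTRL mouse B. Why these values moved was not tested. Of 592 list medians 563 moved by less than the spread between mice. With 3 mice a group, only differences that are large beside the spread could pass the adjusted test.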

Other observations

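Mest, an imprinted gene that follows the growth of fat depots, had 447, 225 and 1267 normalised reads in CTRL and 162, 120 and 207 in VDD, without overlap and with CTRL mouse C highest (-1.66 ± 0.57, SE, limma, adjusted p = 0.394). Its log2 fold change was -3.62 in LF sons and -2.23 in HF daughters. Igf2r, which clears IGF2, had -0.40 ± 0.12 (SE, limma, adjusted p = 0.391). Of 16 tested imprinted genes Mest alone was apart (3.45% of all genes lower), with 3 apart and lower without CTRL mouse C and 5 without VDD mouse F. In cholesterol synthesis 1 of 23 genes was apart and higher, Msmo1 (0.63 ± 0.19, SE), and 1 apart and lower, Hmgcs1 (-0.87 ± 0.36, SE), with 20 of 23 above 0 and a median of 0.15. Without VDD mouse F 7 of 23 were apart and higher, against 8.44% of all genes.

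Stromal progenitor markers had a median of -0.27 with 16 of 20 lower and 1 apart. Pdgfrb, the receptor of mural and progenitor cells, had 995, 842 and 963 normalised reads in CTRL and 385, 512 and 748 in VDD (-0.82 ± 0.23, SE, limma, adjusted p = 0.391). Serpina3k was named by its interaction of sex and maternal diet (-2.33 ± 0.42, SE, adjusted p = 0.71), with a log2 fold change of -0.10 in daughters and 2.24 in sons. Lep had an interaction of 4.33 ± 0.87 (SE, limma, adjusted p = 0.944), with 3806, 2231 and 5028 normalised reads in CTRL males and 109, 425 and 586 in VDD males.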
